A study of Mus musculus with 35 samples.

Results

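Club cell secretory genes were followed here as 10 named genes: Scgb1a1, Scgb3a2, Cbr2, Bpifa1, Lypd2, Reg3g, Hp, Muc5b, Cldn10 and Krt15. They were listed by symbol, with earlier results of these data known. All 10 were on the array, each through 1 probe set annotated with that symbol alone, and they are 10 of 17097 genes tested. The study measured messenger RNA in whole lung of adult male CD-1 mice, an outbred stock, which breathed air alone or air with styrene, a volatile solvent, at 1, 5, 10, 20, 40 or 120 ppm. Each of the 7 groups held 5 mice with 1 array each, 35 arrays in all, and no group carried a genetic change. The labels conflict on the length of exposure. Titles say 1 day and the protocol speaks of 1 exposure of 6 hours. The name of the series and the characteristics of the samples say 5 days. Values are log2 probe set signals, so a difference of 1 is a 2-fold change, and a level is not comparable between genes because probes differ in brightness.

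Club cells are the secretory cells that line the bronchioles of the mouse. They release small proteins of the secretoglobin family into the airway lining, hold much of the lung's cytochrome P450, and can divide to replace ciliated cells. Secretory cells of the trachea and large bronchi share part of this programme and add defence proteins such as Bpifa1, Reg3g and the gel-forming mucin Muc5b, whereas Krt15 encodes a keratin known from the basal cells beneath them. The label of the gene list therefore covers more than 1 kind of airway cell. In whole lung, fewer cells of a type and less RNA per cell cannot be told apart.

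Arrays of air and 1 ppm differed as a set from those of 5 to 120 ppm. The interquartile range of the log2 values was 3.28 to 3.54 on the 25 arrays from 5 to 120 ppm and 2.66 to 3.16 on the 10 arrays of air and 1 ppm, with no overlap. Of all genes, 77.0% were called at 5 ppm against air, 66.4% at 10 ppm, 63.6% at 20 ppm, 64.8% at 40 ppm and 68.9% at 120 ppm, but 2.46% at 1 ppm. A gene was called when its limma p-value, adjusted over all genes by Benjamini-Hochberg, was under 0.05. No label names a batch. A batch that followed this split and an effect of styrene from 5 ppm up cannot be told apart, which holds for every comparison with air below. The medians of all genes' changes against air were -0.23 at 5 ppm and -0.15 at 120 ppm.

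A smaller share of the 10 genes than of all genes was called against air from 5 ppm up. Of the 10, 5 were among the 200 genes with the largest spread between mice, so large changes of theirs can go uncalled. The SE of a change was 1.47 for Bpifa1 and 0.99 for Reg3g. The part of this spread in the smaller share was not tested. At 5 ppm, Scgb1a1, Reg3g and Cldn10 were higher and Cbr2 and Lypd2 lower, 5 of 10 in all. Cldn10 and Scgb1a1 were higher and Lypd2 lower at 10 ppm. At 20, 40 and 120 ppm the called genes were Cldn10, higher, and Lypd2, lower, 2 of 10 each time. None was called at 1 ppm with limma, and none had an unadjusted p under 0.05 there. In 1 direction, 29.6% of all genes were higher and 47.4% lower at 5 ppm, and 29.8% were higher and 39.1% lower at 120 ppm. The median change of the 10 genes was 0.01 at 5 ppm and 0.05 at 120 ppm.

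**Figure D1:**
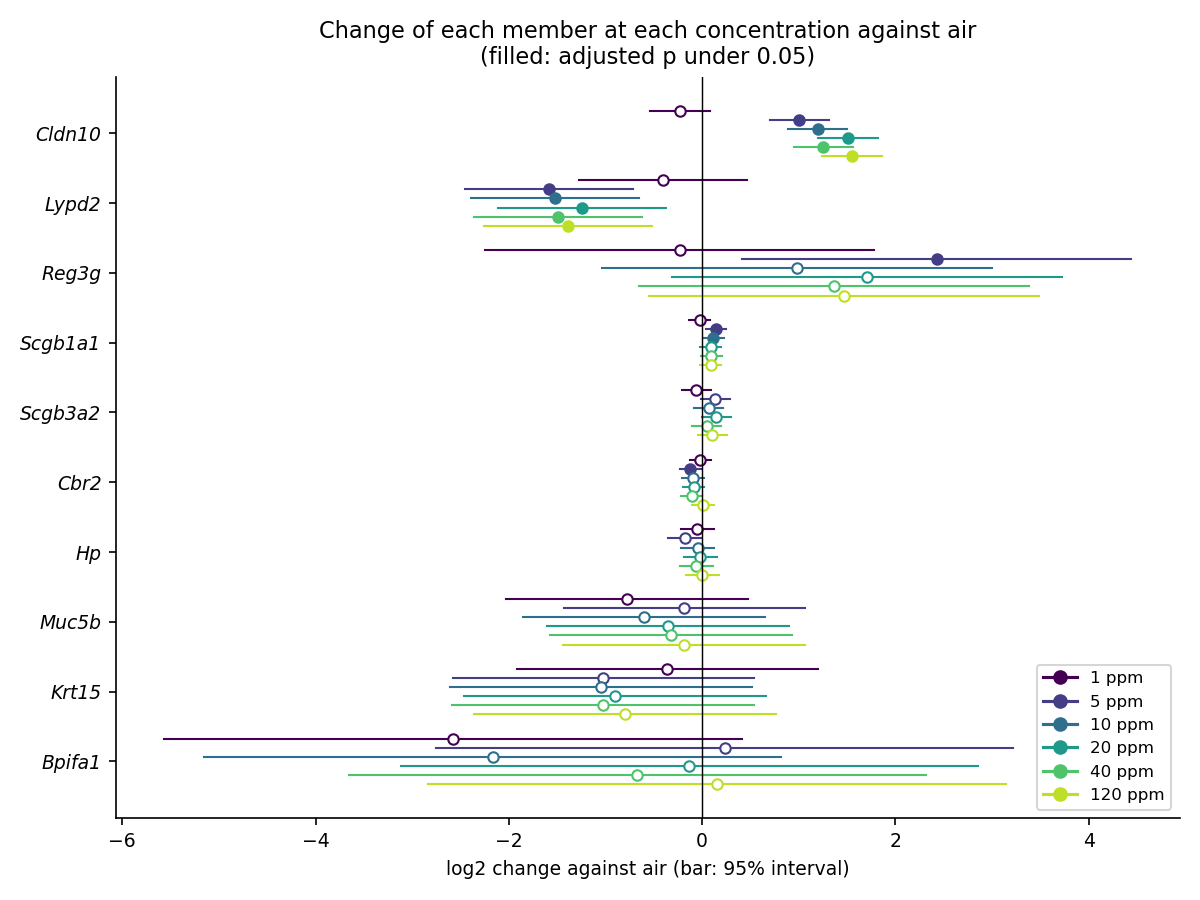
Log2 change of each of the 10 genes at each styrene concentration against air (horizontal axis), with bars for the 95% interval of the limma fit and filled points for an adjusted p under 0.05, 5 mice per group. Cldn10 sits right of 0 and Lypd2 left of 0 at every concentration from 5 ppm, whereas the intervals of Scgb1a1, Scgb3a2, Cbr2 and Hp are narrow and close to 0 and that of Bpifa1 is wide.

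Cldn10, which encodes a claudin of tight junctions that marks club cells in the mouse airway, separated the 2 sets of arrays fully. Its log2 values were 7.17, 6.85, 7.21, 7.46 and 7.45 in air and 7.45, 7.08, 7.03, 6.66 and 6.77 at 1 ppm. They were 8.12, 8.24, 8.11, 8.41 and 8.30 at 5 ppm and 8.53, 8.42, 8.26, 8.59 and 8.33 at 10 ppm. The lowest of the 25 mice from 5 to 120 ppm, at 8.11, lay above the highest of the 10 mice in air and 1 ppm, at 7.46. Values at 20 ppm were 9.09, 8.52, 9.23, 8.45 and 8.40, those at 40 ppm 8.16, 8.57, 8.52, 8.41 and 8.76, and those at 120 ppm 8.91, 8.77, 8.49, 8.78 and 8.95. These 3 groups overlapped each other.

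Against air, Cldn10 was higher by 1.01 ± 0.152 at 5 ppm (SE, 5 mice per group, adjusted p = 4.19e-07) and by 1.55 ± 0.152 at 120 ppm (adjusted p = 1.04e-10). The changes in between were 1.20 at 10 ppm, 1.51 at 20 ppm and 1.26 at 40 ppm, each called. In order of group means the levels ran 7.00 ± 0.309 at 1 ppm, 7.23 ± 0.249 in air, 8.24 ± 0.128 at 5 ppm, 8.42 ± 0.137 at 10 ppm, 8.48 ± 0.219 at 40 ppm, 8.74 ± 0.39 at 20 ppm and 8.78 ± 0.177 at 120 ppm (SD, n = 5 each). The step from 1 ppm to 5 ppm, 1.24 ± 0.152, was called (adjusted p = 7.18e-09), in a comparison that called 79.6% of all genes. The differences between 10 and 5 ppm (0.19, 95% interval -0.12 to 0.50), 20 and 10 ppm (0.31, 0.01 to 0.62), 40 and 20 ppm (-0.25, -0.56 to 0.05) and 120 and 40 ppm (0.30, -0.01 to 0.60) were not called. Those comparisons called 27.2%, 0.0%, 0.0% and 0.0175% of all genes. With limma, 1589 genes had an unadjusted p under 0.05 for 20 against 10 ppm, 983 for 40 against 20 ppm and 1625 for 120 against 40 ppm. With each array's score on the main axis of within-group spread as a covariate, the Cldn10 change was 1.41 ± 0.248 at 5 ppm and 1.76 ± 0.178 at 120 ppm, both called. With the interquartile range as a covariate it was 3.30 at 5 ppm and was not called (adjusted p = 0.0751). Air and the groups from 5 ppm up share no range of either covariate, so these values are extrapolated.

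Lypd2, a small protein of the Ly6 family made by airway secretory cells, went the other way. Its log2 values were 12.08, 9.73, 11.13, 11.43 and 11.05 in air and 11.14, 10.39, 11.61, 10.14 and 10.11 at 1 ppm. They were 10.22, 9.27, 8.62, 9.24 and 10.15 at 5 ppm, 9.93, 9.88, 9.09, 10.58 and 8.31 at 10 ppm, and 11.14, 9.72, 10.09, 8.96 and 9.31 at 20 ppm. In air, 4 of 5 mice were above 11, and 1 of the 25 mice from 5 to 120 ppm was. The values at 40 ppm were 10.02, 9.03, 10.35, 9.81 and 8.76, and those at 120 ppm were 9.81, 9.97, 9.58, 9.87 and 9.23. All 120 ppm mice were below 4 of the 5 air mice, and the groups overlapped through air mouse 2.

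The change of Lypd2 against air was -1.58 ± 0.427 at 5 ppm (SE, 5 mice per group, adjusted p = 0.00135) and -1.39 ± 0.427 at 120 ppm (adjusted p = 0.00485). Those at the concentrations in between were -1.52 (10 ppm), -1.24 (20 ppm) and -1.49 (40 ppm), each called. At 1 ppm it was -0.40 (95% interval -1.27 to 0.47) and not called. None of the steps between neighbouring concentrations from 5 ppm up was called for Lypd2, and that from 1 ppm to 5 ppm was (-1.18 ± 0.427, adjusted p = 0.013). Without air mouse 1 the 20 ppm change was -0.988 and not called (adjusted p = 0.0539). With the array axis in the fit, the Lypd2 changes were -0.393 at 5 ppm (adjusted p = 0.698) and -0.775 at 120 ppm (adjusted p = 0.204), neither called.

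Across all 7 groups, a moderated F test called Cldn10 (adjusted p = 1.60e-13), Lypd2 (adjusted p = 0.0038) and Scgb1a1 (adjusted p = 0.0281), 3 of the 10 genes, and 82.4% of all genes. A trend over log2(ppm + 1) on all mice called Cldn10 (0.26 per unit) and Lypd2 (-0.20 per unit), and 72.6% of all genes. Over 10 to 120 ppm alone the limma trend called none of the 10 genes and 0.0% of all genes. There, 1369 genes and none of the 10 had an unadjusted p under 0.05.

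**Figure D2:**
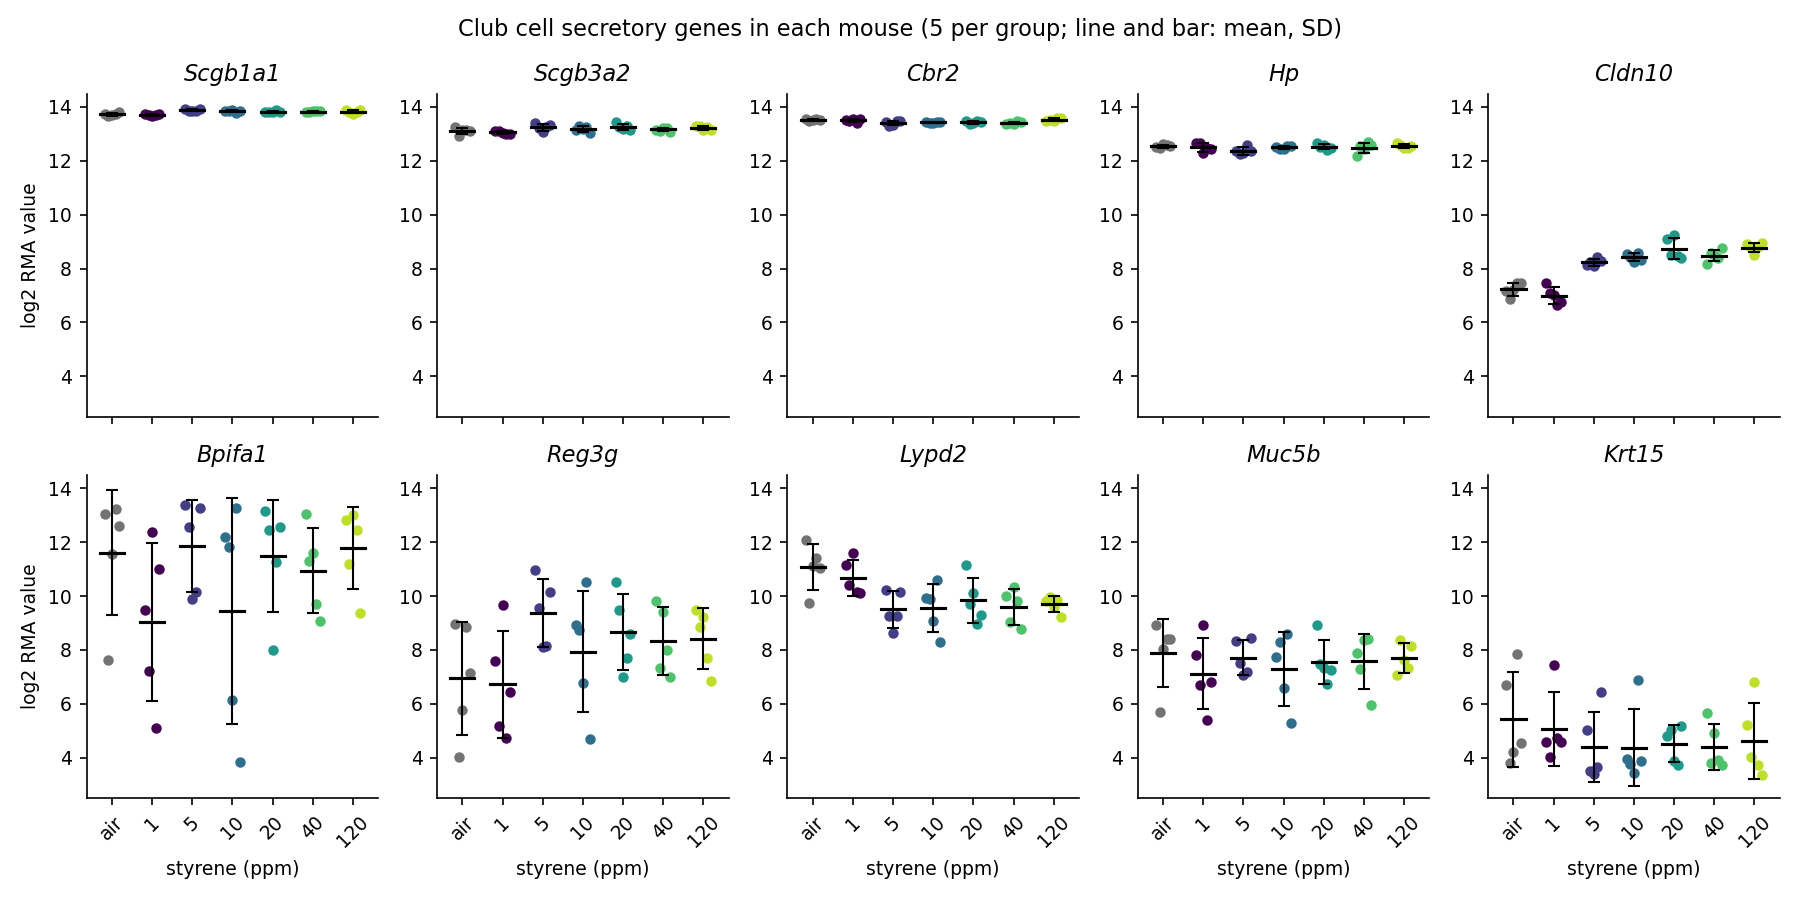
Log2 RMA value of each of the 10 genes in each mouse (vertical axis) by styrene concentration (horizontal axis), with a line for the group mean and a bar for the SD, 5 mice per group. Scgb1a1, Scgb3a2, Cbr2 and Hp form flat, tight rows, Cldn10 steps up between 1 and 5 ppm, and Bpifa1 spreads from 3.82 to 13.39.

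The secretoglobins and the other abundant club cell products changed little. Scgb1a1, the main secreted protein of club cells, ranged from 13.67 to 13.93 over all 35 mice. Its highest value was also the highest of any probe set on any array, so it lay at the top of the scale. How far signal is compressed there was not tested. The change of Scgb1a1 was 0.15 ± 0.0518 at 5 ppm (SE, adjusted p = 0.012) and 0.12 ± 0.0518 at 10 ppm (adjusted p = 0.0469), the only calls for it against air. At 120 ppm it was 0.09, with a 95% interval of -0.02 to 0.19. All 5 mice at 5 ppm were above all 5 in air. The values were 13.93, 13.84, 13.86, 13.85 and 13.92 at 5 ppm and 13.73, 13.68, 13.72, 13.73 and 13.83 in air. With every array shifted to a shared median, the change at 5 ppm was 0.044 (adjusted p = 0.466), and after quantile normalization 0.0808 (adjusted p = 0.141), neither called. The 10 ppm call was lost when any 1 of 8 of its 10 mice was left out, with changes of 0.102 (without air mouse 2) to 0.118 (without 10 ppm mouse 1).

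Scgb3a2, a second secretoglobin of the bronchioles, ranged from 12.93 to 13.44. It averaged 13.25 ± 0.126 at 5 ppm and 13.12 ± 0.119 in air (SD, n = 5 each), a change of 0.14 with a 95% interval of -0.02 to 0.29 that was not called. At 120 ppm the change was 0.11 (-0.04 to 0.26). Against 1 ppm, where the mean was 13.06 ± 0.0656, the 5 ppm level was higher by 0.20 ± 0.0737 and was called (adjusted p = 0.0166). That comparison called 5 of the 10 genes, the others being Scgb1a1, Reg3g and Cldn10, higher, and Lypd2, lower.

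Cbr2, a carbonyl reductase abundant in mouse lung, ranged from 13.31 to 13.59. It averaged 13.40 ± 0.076 at 5 ppm and 13.52 ± 0.0404 in air (SD, n = 5 each), a change of -0.12 ± 0.0545 (SE) that just passed the threshold (adjusted p = 0.0449). The call was lost without any 1 of 5 mice, with values from -0.119 (without air mouse 3) to -0.0976 (without 5 ppm mouse 2). At 120 ppm Cbr2 averaged 13.53 ± 0.0582, a change of 0.01 (95% interval -0.10 to 0.12). Hp, haptoglobin, which binds free haemoglobin, ranged from 12.19 to 12.69 and was not called at any concentration. Its changes were -0.18 (-0.35 to -0.01) at 5 ppm, with an adjusted p of 0.0526, and 0.00 (-0.17 to 0.17) at 120 ppm. For these 4 abundant genes the intervals at 120 ppm reach no further than 0.26 log2 from 0 in measured signal. Whether signal near the top of the scale understates changes in RNA was not tested.

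Bpifa1, a secreted lipid-binding defence protein of the upper and large airways, varied more between mice of the same group than any other of the 17097 genes. Its log2 values were 13.03, 7.64, 11.55, 13.24 and 12.61 in air and 9.48, 7.23, 12.40, 5.10 and 10.99 at 1 ppm. They were 13.39, 12.56, 9.88, 10.13 and 13.27 at 5 ppm and 12.18, 11.83, 6.12, 13.28 and 3.82 at 10 ppm. Every group held mice with high and with low values. The values were 13.17, 12.44, 7.98, 11.28 and 12.55 at 20 ppm, 13.06, 11.29, 11.60, 9.70 and 9.08 at 40 ppm, and 12.83, 11.19, 13.01, 12.47 and 9.35 at 120 ppm. The mouse with the most Bpifa1 had 11.4 times the signal of the mouse with the least at 5 ppm. The lowest 10 ppm mouse, at 3.82, was below the median of all probe sets (4.47), so no fold is given there. Against air the change was 0.23 at 5 ppm, with a 95% interval of -2.75 to 3.22, and 0.15 (-2.83 to 3.14) at 120 ppm. Neither was called, and intervals of this width leave room for large changes in either direction.

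Reg3g, a secreted lectin that kills Gram-positive bacteria, followed the same mice. Its log2 values were 8.95, 4.02, 5.77, 8.86 and 7.15 in air, 7.60, 5.19, 9.66, 4.72 and 6.42 at 1 ppm, and 10.97, 9.54, 8.10, 8.14 and 10.14 at 5 ppm. They were 8.91, 8.74, 6.79, 10.54 and 4.69 at 10 ppm, 10.52, 9.50, 6.98, 7.70 and 8.59 at 20 ppm, 9.83, 7.33, 9.43, 7.98 and 7.00 at 40 ppm, and 9.49, 8.85, 9.23, 7.69 and 6.83 at 120 ppm. The lowest 5 ppm mouse was above 3 of the 5 air mice, and each of the other exposed groups had a lower lowest mouse. The change at 5 ppm was 2.43 ± 0.99 (SE, adjusted p = 0.027). This call was lost without air mouse 2 (1.70, adjusted p = 0.12), air mouse 3 (2.13, 0.0675), 5 ppm mouse 1 (2.03, 0.0779) or 5 ppm mouse 5 (2.24, 0.057). At 1 ppm the change was -0.23, and at 10, 20, 40 and 120 ppm it was 0.98, 1.71, 1.36 and 1.47, none called.

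Upstream sequence is shown for Bpifa1 and Reg3g, which varied together, and for Cbr2, a steady gene of the same list. Each line gives the 250 bases before the annotated start, 5′ to 3′ on the gene's own strand, from RefSeq on build GRCm38.p6. Capitals mark matches, on either strand, to the core promoter motif TATAAA, which places the start in many genes, or to CTTGAG, a core of the lung and thyroid factor NKX2-1.
Bpifa1, chr2:154142630-154142879, plus strand: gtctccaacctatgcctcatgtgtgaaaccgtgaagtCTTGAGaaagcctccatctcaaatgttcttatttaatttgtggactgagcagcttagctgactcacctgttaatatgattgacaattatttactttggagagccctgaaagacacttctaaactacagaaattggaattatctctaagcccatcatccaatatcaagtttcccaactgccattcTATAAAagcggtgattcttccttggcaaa
Reg3g, chr6:78468875-78469124, minus strand: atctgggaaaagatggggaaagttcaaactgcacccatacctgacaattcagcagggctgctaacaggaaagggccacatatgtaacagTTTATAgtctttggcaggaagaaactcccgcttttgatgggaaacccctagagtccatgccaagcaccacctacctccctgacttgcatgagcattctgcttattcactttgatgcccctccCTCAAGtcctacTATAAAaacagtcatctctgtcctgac
Cbr2, chr11:120732022-120732271, minus strand: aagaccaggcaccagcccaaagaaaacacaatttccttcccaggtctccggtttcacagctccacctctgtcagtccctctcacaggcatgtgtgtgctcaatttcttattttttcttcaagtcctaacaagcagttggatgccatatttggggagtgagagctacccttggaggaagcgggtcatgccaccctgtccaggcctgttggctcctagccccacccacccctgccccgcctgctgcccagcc

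TATAAA on the gene's own strand lay 29 to 24 bases before the start of Bpifa1 and 27 to 22 bases before that of Reg3g. CTTGAG lay 213 to 208 bases before the start of Bpifa1. On the opposite strand it lay 39 to 34 bases before that of Reg3g, which also held a TATAAA on the opposite strand 161 to 156 bases before the start. Over 32851 upstream windows of this length, 12.4% held TATAAA and 13.3% held CTTGAG on either strand. The Cbr2 window held neither. TGTTTAC (a core of FOXA factors, in 3.17% of windows) and TTGCNNAA (a C/EBP half-site pair, in 9.56%) were also searched, on both strands, and were in none of the 3. The motifs searched do not overlap within the windows shown. Of the 10 genes, 4 were searched, Cldn10 with 2 windows, of which 1 held CTTGAG and the other no match. Scgb1a1, Scgb3a2, Lypd2, Hp, Muc5b and Krt15 were not analysed here. A match in letters is a description and was not set against any binding data.

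Muc5b, the gel-forming mucin of healthy airways, ranged from 5.29 to 8.93, and its groups overlapped throughout. It averaged 7.71 ± 0.546 at 120 ppm and 7.90 ± 1.27 in air (SD, n = 5 each). The change was -0.18 (95% interval -1.43 to 1.07) at 5 ppm and -0.19 (-1.44 to 1.06) at 120 ppm. Krt15 ranged from 3.36 to 7.85, and several of its group means lay below the median of all probe sets, 4.47, where a probe set reads little above background. It averaged 4.62 ± 1.41 at 120 ppm and 5.42 ± 1.76 in air, with changes of -1.02 (-2.58 to 0.54) at 5 ppm and -0.80 (-2.36 to 0.76) at 120 ppm. At 10 ppm, mouse 4 had a Krt15 value of 6.90, and the other 4 mice had 3.42 to 3.94.

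The 10 genes differed widely in their spread between mice. The SD between mice of the same group, pooled over the 7 groups (28 degrees of freedom), was 2.49 for Bpifa1, the largest of 17097 genes. It was 1.68 for Reg3g (rank 17 from the largest), 1.30 for Krt15 (31), 1.04 for Muc5b (55) and 0.722 for Lypd2 (141). These 5 genes are named from here on as the 5 variable genes, a grouping made after their values were seen. At the other end were Scgb1a1 at 0.0435, the 4th smallest, Cbr2 at 0.0521 (the 12th smallest), Scgb3a2 at 0.0994 (257) and Hp at 0.12 (852). Cldn10, at 0.246, was near the median of all genes, 0.207. All values of Scgb1a1, Scgb3a2 and Cbr2 were above 12.93, near the top of the scale, and whether this holds their SD down was not tested.

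**Figure D3:**
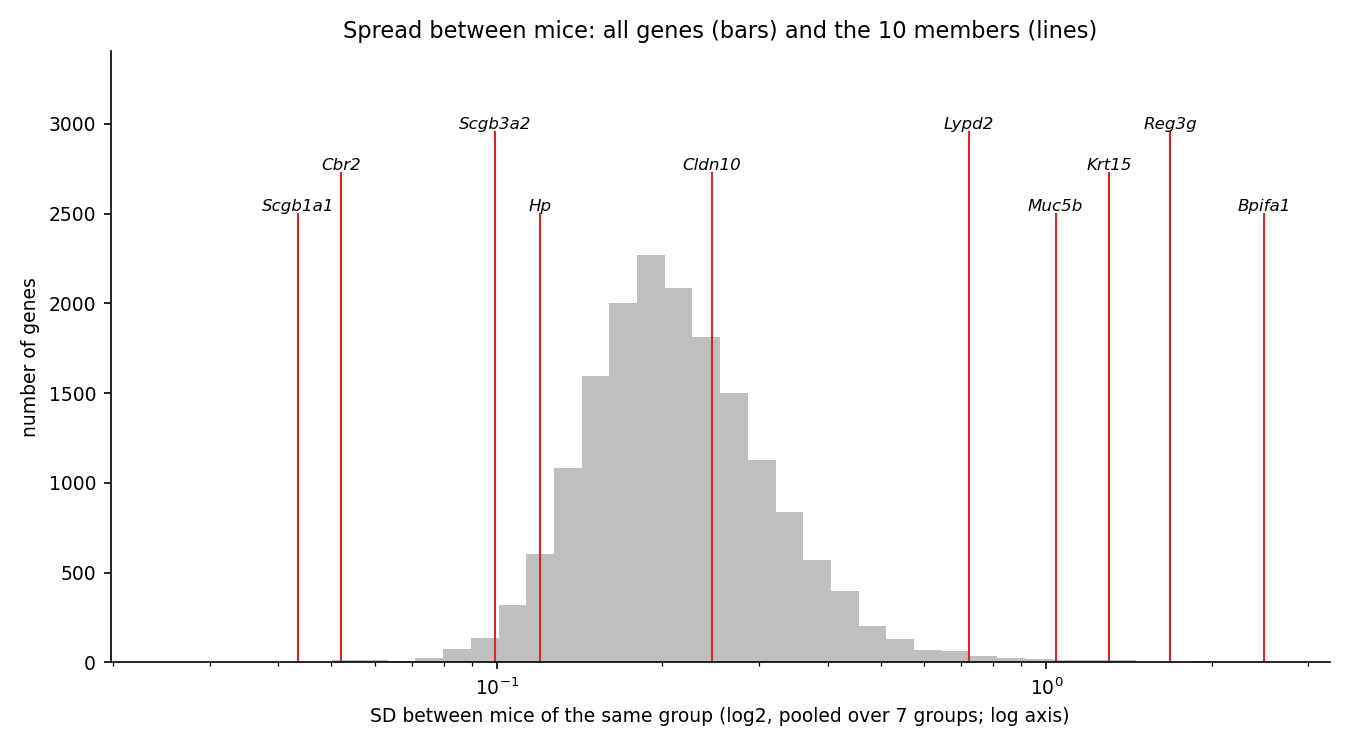
Number of genes (bars) by the SD between mice of the same group in log2 units (horizontal log axis), with a line for each of the 10 genes. Bpifa1, Reg3g, Krt15, Muc5b and Lypd2 lie in the right tail, Scgb1a1, Cbr2, Scgb3a2 and Hp in the left part, and Cldn10 close to the middle.

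The 5 variable genes varied together, mouse by mouse. In all 7 groups, the mouse with the most Bpifa1 had more Reg3g, Lypd2 and Krt15 than the mouse with the least, and in 6 of 7 groups more Muc5b. Mouse 5 at 10 ppm, with Bpifa1 at 3.82, also had the lowest values of its group for Reg3g (4.69), Lypd2 (8.31) and Muc5b (5.29). Air mouse 2, with Bpifa1 at 7.64, had the lowest Reg3g (4.02), Lypd2 (9.73), Muc5b (5.70) and Krt15 (3.81) of the air group. With each mouse taken as its deviation from the mean of its group, Bpifa1 and Reg3g correlated with r = 0.891 over 35 arrays (Spearman's rho = 0.871, permutation p = 1e-05 for both, adjusted p = 7.5e-05 for r and 0.00011 for rho). Here 1e-05 is the smallest p that 100000 shuffles of mice within groups can give. Without the 2 mice farthest from the median of Bpifa1, r was 0.853. It was 0.902 over the 25 mice from 5 to 120 ppm and 0.885 over the 10 mice of air and 1 ppm.

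All 45 pairs of the 10 genes were computed as 1 family. All 10 pairs among the 5 variable genes passed (r from 0.508 to 0.891, rho from 0.532 to 0.884, largest adjusted permutation p = 0.019). They stayed positive without the 2 farthest mice (0.472 to 0.853), from 5 to 120 ppm (0.399 to 0.902) and in air and 1 ppm (0.645 to 0.929). Against Scgb1a1, Cbr2 and Hp, the 15 pairs had r from -0.284 to 0.277, and none passed the adjusted permutation test. Scgb3a2 leaned to the variable genes, with r from 0.325 (Krt15) to 0.781 (Lypd2), and 4 of its 5 pairs passed by r and 3 by rho. Cldn10 gave -0.0197 to 0.416 with them, and none of these pairs passed. Of the 10 pairs left, 1 passed, Hp with Cldn10 (r = 0.563, adjusted permutation p = 0.0031). Cbr2 differed between the array sets in value, with r of -0.221 to 0.029 with the 5 variable genes from 5 to 120 ppm and 0.559 to 0.92 in air and 1 ppm. Cldn10 did too, with r of -0.196 to 0.317 from 5 to 120 ppm and 0.252 to 0.68 in air and 1 ppm. These differences were not tested. The array axis moved little with Bpifa1 within groups (r = -0.0147) and more with Lypd2 (0.349), Cldn10 (0.351) and Scgb1a1 (-0.561), and its part in those results was not tested further. Within groups, the interquartile range of an array gave r of -0.464 with Cldn10, -0.43 with Hp, -0.375 with Scgb3a2 and -0.33 with Lypd2. The other members lay between -0.136 and 0.137. The part of the interquartile range in the correlations between genes was not tested.

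**Figure D4:**
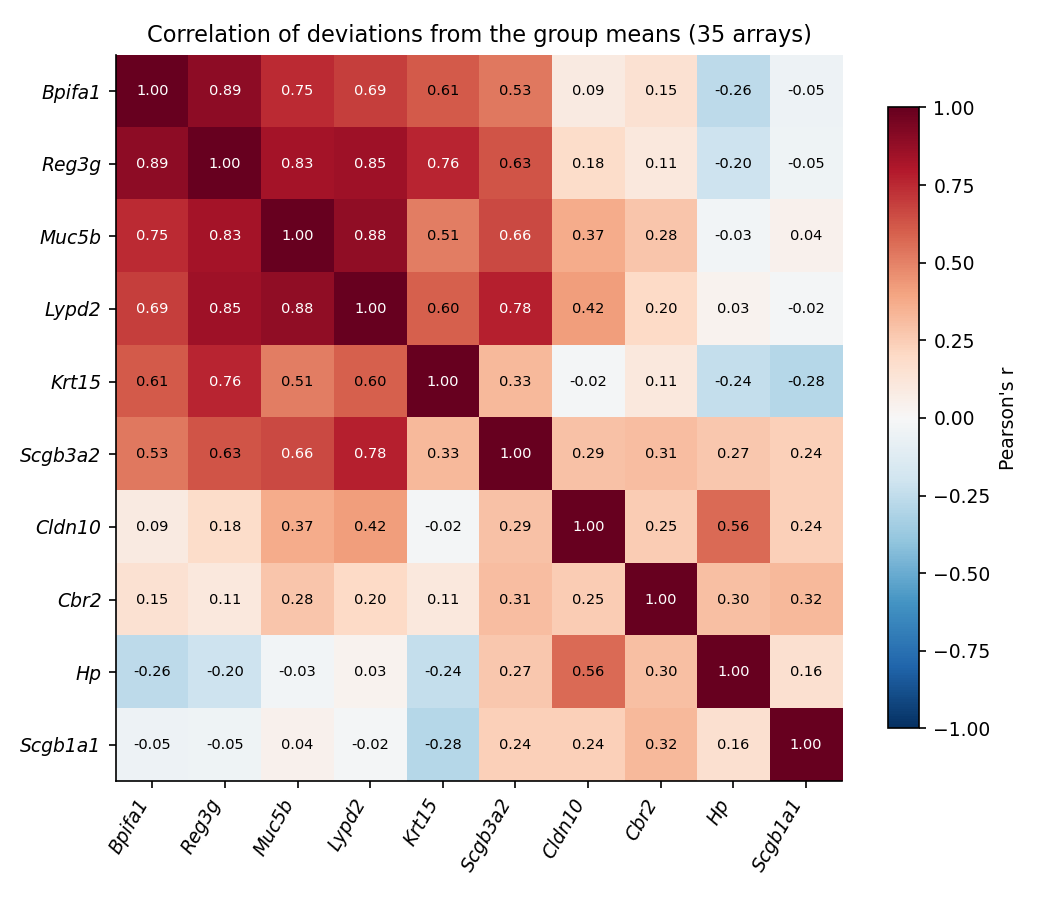
Pearson's r (colour and printed value) between each pair of the 10 genes, on deviations of 35 mice from their group means. The 5 genes at the upper left form a block from 0.51 to 0.89, Scgb3a2 joins it in part, and Scgb1a1, Cbr2 and Hp stay between -0.28 and 0.28 with that block.

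Outside the list, the genes most like each member were taken by the same r over 35 arrays, 3 per member. Those most like Bpifa1 were Ltf (0.867, lactoferrin, an iron-binding defence protein), Scgb3a1 (0.854, a secretoglobin of large airways) and Bpifb1 (0.83, a relative of Bpifa1). For Reg3g they were Ltf (0.904), Agr2 (0.897, a folding enzyme for mucins) and Bpifb1 (0.876). For Muc5b they were Tff2 (0.915, a trefoil peptide secreted with mucins), Bpifb1 (0.914) and Scgb3a1 (0.876), and for Lypd2 Gsto1 (0.892), Atp6v1b1 (0.885) and Oit1 (0.883). Krt15 was most like Krt5 (0.922), the defining keratin of airway basal cells, then Aqp3 (0.888), a water channel of basal cells, and Cdh26 (0.82). The other members had lower values. Scgb3a2 came closest to AU040972 (0.784), Cldn10 to Elapor1 (0.793), Hp to Plekhb1 (0.766), Cbr2 to Rap1gap (0.755) and Scgb1a1 to Cd55 (0.744). Each r here was picked as among the highest over all genes outside the list, which by itself raises it, and none was tested.

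These lists hold 11 different genes most like Bpifa1, Reg3g, Muc5b, Lypd2 or Krt15. At 120 ppm against air, 2 of the 11 were higher, Agr2 (2.06 ± 0.542, adjusted p = 0.00119) and Gsto1 (0.64 ± 0.218, adjusted p = 0.0103). Another 2 were lower, Aqp3 (-1.39 ± 0.508, adjusted p = 0.0164) and Tff2 (-1.61 ± 0.704, adjusted p = 0.0429). At 5 ppm Agr2 was higher (1.73 ± 0.542) and Aqp3 lower (-1.41 ± 0.508). In air Agr2 averaged 4.39 ± 0.827 (SD, n = 5), below the median of all probe sets, 4.47, so its changes start from near background. The other 7 were not called at either concentration. Of all genes, 68.9% were called at 120 ppm and 77.0% at 5 ppm. The SD of the 11 genes between mice of a group ran from 0.362 (Gsto1) to 2.0 (Ltf). The median of all genes was 0.207, so the 11 were measured with less precision and large changes can go uncalled. Scgb3a1 averaged 12.31 ± 0.418 at 120 ppm and 11.57 ± 1.65 in air (SD, n = 5 each), a change of 0.74 ± 0.691 that was not called. Bpifb1 averaged 9.46 ± 0.633 at 120 ppm and 8.96 ± 2.92 in air, a change of 0.50 ± 1.08, also not called. Krt5 averaged 4.40 ± 0.672 at 120 ppm and 5.17 ± 1.23 in air, a change of -0.77 ± 0.492, not called. Its mean at 120 ppm was also below 4.47. How much trachea or main bronchus each lung sample held is not stated in the labels, and its part in the spread was not tested.

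Because Bpifa1 differed so much between mice, the fit was repeated with the Bpifa1 value of each array as a covariate, an addition made after the data were seen. The ranges of Bpifa1 overlapped between all groups. This fit called 76.8% of all genes at 5 ppm and 68.6% at 120 ppm. The Reg3g change against air was then 1.69 ± 0.464 at 5 ppm (SE, adjusted p = 0.00165), 1.68 ± 0.463 at 10 ppm (0.00205), 1.19 ± 0.461 at 20 ppm (0.026) and 1.17 ± 0.459 at 40 ppm (0.027), all called. At 120 ppm it was 0.77 ± 0.463 (adjusted p = 0.136) and at 1 ppm 0.72 ± 0.467 (0.523), neither called. The values at 1 and 120 ppm were thus alike. The SE of Reg3g was 0.99 without the covariate, more than 2 times as large. Relative to Bpifa1, Reg3g was therefore called higher in 4 of the 5 groups from 5 ppm up. Lypd2 was lower in all 5, by -1.83 ± 0.318 at 5 ppm (adjusted p = 5.73e-06) and -1.62 ± 0.318 at 120 ppm (adjusted p = 4.09e-05). Krt15 was called at 5 ppm alone (-1.42 ± 0.622, adjusted p = 0.0393). Cldn10, which varied with Bpifa1 little, had 1.00 at 5 ppm and 1.54 at 120 ppm. Bpifa1 reached 13.39, near the top of the scale, and Reg3g fell to 4.02, below the median of all probe sets, 4.47. How far either end of the scale shaped the changes in this fit was not tested.

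**Figure D5:**
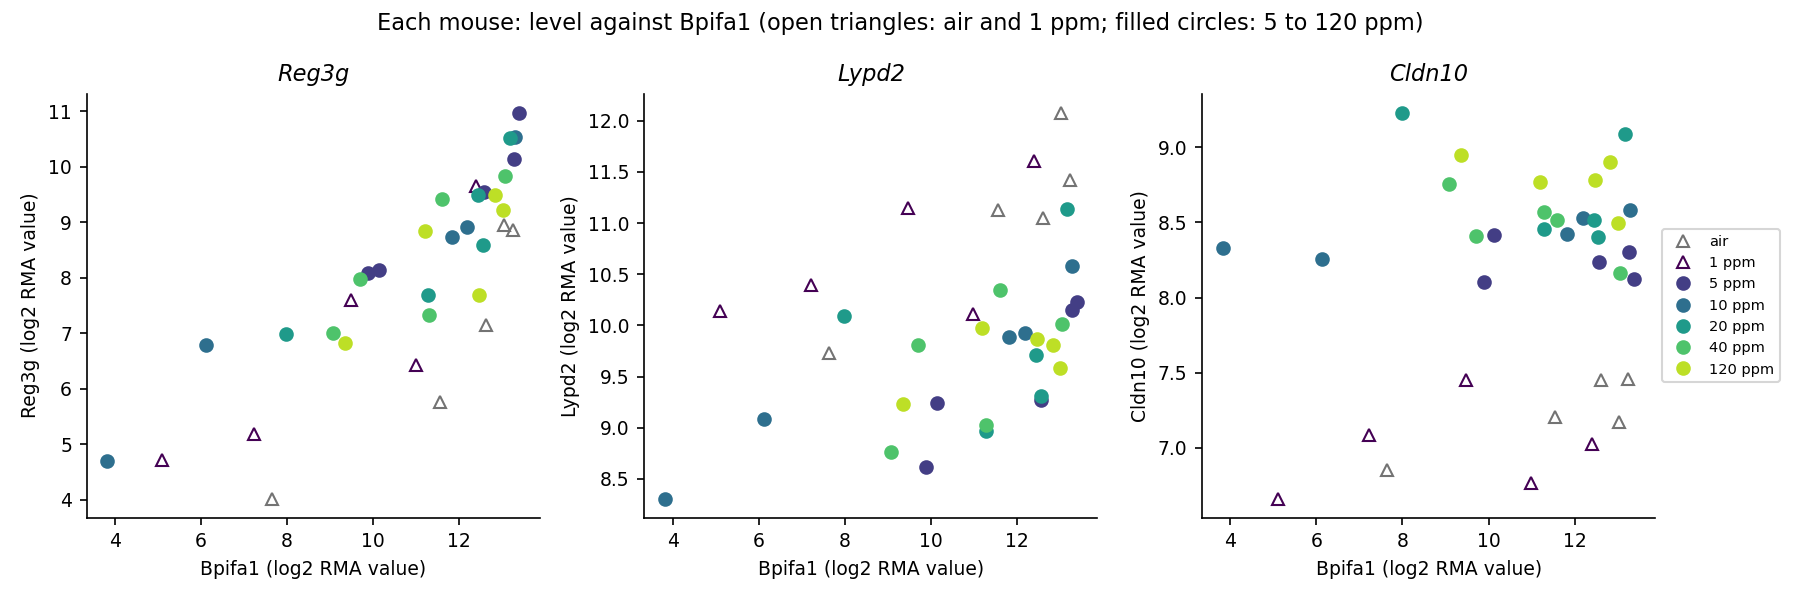
Log2 RMA value of Reg3g, Lypd2 and Cldn10 (vertical axes) against that of Bpifa1 (horizontal axes), 1 point per mouse, with open triangles for air and 1 ppm and filled circles for 5 to 120 ppm. Reg3g climbs with Bpifa1 in both sets, Lypd2 lies lower from 5 to 120 ppm at like Bpifa1, and Cldn10 lies higher from 5 to 120 ppm at any Bpifa1.

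Of 24 further club cell genes measured, 14 were higher and 2 lower at 120 ppm, with a median change of 0.71, and 12 were higher and 4 lower at 5 ppm, with a median of 0.44. These 16 of 24 called in either direction stand beside 68.9% of all genes at 120 ppm and 77.0% at 5 ppm. That share was not above that of all genes. By direction, 29.8% of all genes were higher and 39.1% lower at 120 ppm, and 29.6% higher and 47.4% lower at 5 ppm. At both concentrations the higher share of the 24 was above that of all genes and the lower share below it. Of the 24, the 3 with the smallest adjusted p at 120 ppm were Cd24a, a surface protein of airway epithelium (1.93 ± 0.148), and the aldehyde dehydrogenases Aldh1a7 (2.10 ± 0.164) and Aldh1a1 (1.16 ± 0.135). Cyp2f2, the P450 of mouse club cells that oxidises styrene, had a change of 0.08 ± 0.0611 at 120 ppm and -0.04 ± 0.0611 at 5 ppm, neither called. The summed log2 level of these 24 genes was 235.9 to 251.4 over the mice of 5 to 120 ppm and 218.8 to 236.4 over those of air and 1 ppm. Of 18 regulators of airway secretory cells, 4 were higher and 10 lower at 120 ppm, led by Cebpa (-1.33 ± 0.115), Creb3l1 (-1.58 ± 0.148) and Cebpb (-1.06 ± 0.141), transcription factors.

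Marker lists of other cells were read beside these changes, against a background of 29.8% of all genes higher and 39.1% lower at 120 ppm. Of 8 basal cell genes, 0 were higher and 6 lower at 120 ppm with limma (median -0.57), among them Lgals7, Krt6a and Krt14. Their summed log2 level was 30.43 to 35.34 from 5 to 120 ppm and 32.19 to 42.63 in air and 1 ppm. In every mouse from 5 to 120 ppm the 8 genes thus averaged below the median of all probe sets, 4.47. A probe set reads little above background there, and how far low signal shaped these changes was not tested. Of 12 genes of large airway cartilage, 5 were lower and 0 higher at 120 ppm (median -0.37), led by Matn4, a share close to that of all genes lower. Their summed log2 level was 52.7 to 59.46 from 5 to 120 ppm and 57.02 to 65.03 in air and 1 ppm. The part of either list in the change of Lypd2 was not tested. Of 10 ciliated cell genes, 8 were higher and 2, Foxj1 (-1.09 ± 0.312) and Tppp3 (-0.88 ± 0.105), lower at 120 ppm (median 1.24). Their summed log2 level was 65.72 to 77.82 from 5 to 120 ppm and 56.79 to 63.36 in air and 1 ppm. Their part in the change of Cldn10 was not tested.

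The same background of 29.8% higher and 39.1% lower holds for the lists that follow, all at 120 ppm. Of 22 genes of airway mucosal defence, 8 were higher and 3 lower at 120 ppm (median 0.06), led by Pigr, the antibody transporter (2.05 ± 0.318), Muc16 (1.36 ± 0.263) and Cp, ceruloplasmin (1.67 ± 0.328). Of 8 goblet cell genes, 1 was higher and 3 lower, the 3 being Foxa3, Fcgbp and Spdef. Muc5ac, the inducible airway mucin, was not called (-0.22 ± 0.141). It averaged 4.04 in air and 3.82 at 120 ppm, below the median of all probe sets, 4.47, where a probe set reads little above background. Of 14 acute phase and interleukin-22 responsive genes, the kind of genes that Reg3g and Hp are, 2 were higher and 4 lower (median -0.23). In that group Steap4 was higher (1.20 ± 0.183), Socs3 lower (-1.47 ± 0.247), Saa3 lower (-1.01 ± 0.254) and Lcn2 not called (0.31 ± 0.213). Of 9 neutrophil genes, 1 was higher and 3 lower, of 8 alveolar type 2 genes 2 were higher and 2 lower, of 8 alveolar type 1 genes 5 were higher and 3 lower, and of 5 neuroendocrine genes 2 were lower. No gene of any of these lists was called at 1 ppm with limma.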

How the data were processed

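The deposited log2 signals of probe sets were made by the authors with RMA, per the submitters' processing notes. The same notes name Partek, and no version is given for either. RMA adjusts background and scales arrays to each other, so array-wide differences between groups can be dampened or spread over all genes. The table held 45037 probe sets, of which 28898 carried 1 gene symbol in the platform annotation. The brightest probe set of each gene gave 17097 genes.

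All genes were fitted with 1 mean per group in limma 3.58.1 (R 4.3.3, eBayes). Tests were two-sided, and p-values were adjusted over all genes by Benjamini-Hochberg. The code was tested on simulated data. Errors after ± are SEs of changes or SDs of levels. Comparisons with air share its 5 mice and are not independent. The labels call mice of a group biological replicates, so p-values measure the spread between mice. Arrays have no read depth, and their number limits precision.

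The members, the marker lists, the tests and the alternatives were chosen with earlier results of these data known. All 10 members are named. From other lists, up to 3 genes by smallest adjusted p at 120 ppm are named, plus Cyp2f2, Scgb3a1, Bpifb1, Krt5, Muc5ac, Lcn2 and Saa3, and the 3 genes most like each member. Foxj1 was named after its values were seen. The array axis is the main axis of the spread between mice of a group (17.37% of it). Alternatives were other normalizations, probe set choices, priors and subsets of mice, the mouse number as a block, and the array axis, interquartile range or Bpifa1 as a covariate. Correlations were shuffled within groups in Python 3.11.15.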

Additional observations from a re-analysis of the deposited data

Results flagged for a closer look

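Of 70 sets of 5 mice (10 genes in 7 groups), 3 held a mouse far from the other 4, and chance alone gives about 1 in 20. Air mouse 2 had a Muc5b value of 5.70, the lowest of its group by a gap of 0.728 of the group's range. It was also the air mouse with the least Bpifa1. Mouse 3 at 1 ppm had a Krt15 value of 7.44, a gap of 0.787 of the range, and mouse 4 at 10 ppm had a Krt15 value of 6.90, a gap of 0.851. Each of these 2 mice also had the most Bpifa1 of its group.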

How the results depend on the processing

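Of the 14 called changes of the 10 genes against air, 14 stayed called with probe sets averaged per gene, without dim genes and with a trended and robust prior. With Bpifa1 as a covariate 13 did, with quantile normalization, array centring or 1 ppm in place of air 12 each, with only the groups compared 11, with the array axis 6 and with the interquartile range 4. Each of the 10 genes has 1 probe set, so averaging probe sets left their values unchanged, as did leaving out dim genes. Under those alternatives only the shared prior and the adjustment over all genes could move a call. Changes fitted with the interquartile range or the array axis are extrapolated from 5 ppm up, since air and those groups shared no range of either. Array centring took the median change of all genes at 5 ppm to -0.33, against -0.23 without it. Unless a reason is given here, the cause was not tested.

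The mouse numbers did not pair the samples (mean correlation of deviations 0.0343 for same-numbered mice and -0.00826 for others, and 40 of 105 same-numbered pairs over 0.1). With the mouse number as a replicate block, 9 of the 14 calls stayed, and 3 genes were called at 5 ppm. The calls that did not were Scgb1a1 (0.156) and Cbr2 (-0.0519) at 5 ppm and Lypd2 at 20 ppm (-0.331, adjusted p = 0.598), 40 ppm (-0.581, 0.332) and 120 ppm (-0.482, 0.414). Signs turned for Reg3g at 1 ppm (0.164) and, at 120 ppm, for Muc5b (0.575) and Krt15 (0.341).

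At 5 ppm against air the count of called genes was 3 with only the groups compared, 1 with the array axis and 0 with the interquartile range, against 5 in the fit reported. It was 6 with probe sets averaged, without dim genes, with the trended and robust prior and with Bpifa1 as a covariate. With the array axis or the interquartile range the count was 1 at 10, 20 and 120 ppm, for 5 against 1 ppm, for any difference and for the trend on all mice, except that at 40 ppm the array axis kept 2 and the interquartile range 1. The trended and robust prior gave 4 at 20 ppm, 4 at 40 ppm and 5 for any difference. With 1 ppm in place of air, 4 were called at 120 ppm. The trend called 4 after quantile normalization and 0 over untransformed ppm.

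With the interquartile range, signs turned at 5 ppm for Bpifa1 (-4.60), Lypd2 (3.21), Hp (0.86), Muc5b (2.67) and Krt15 (2.14), and for Reg3g at 1 ppm (1.78). For Lypd2 they turned at 10 ppm (3.00), 20 ppm (3.23), 40 ppm (3.04) and 120 ppm (3.20), and at 120 ppm also for Scgb1a1 (-0.0263), Bpifa1 (-4.48), Muc5b (2.54) and Krt15 (2.22). None of these was called. With the array axis they turned for Muc5b (0.898 at 5 ppm, 0.368 at 120 ppm) and Krt15 (0.849 and 0.167). With 1 ppm in place of air Muc5b was 0.59 at 5 ppm and 0.582 at 120 ppm. Centring turned Cbr2 (-0.0568) and Hp (-0.0641) at 120 ppm, and Bpifa1 as a covariate turned Reg3g at 1 ppm (0.716).

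Leaving out 1 mouse at a time gave 3 (without air mouse 3) to 6 (without 5 ppm mouse 4) called genes at 5 ppm. Uncalled changes that turned sign ranged, for Reg3g at 1 ppm, from -0.967 to 0.267. At 5 ppm the ranges were -0.76 to 0.724 for Bpifa1 and -0.732 to 0.0718 for Muc5b. At 120 ppm they were -0.00453 to 0.026 for Cbr2, -0.838 to 0.758 for Bpifa1, -0.0254 to 0.0247 for Hp and -0.741 to 0.0635 for Muc5b. How far low signal for Krt15 and high signal for Scgb1a1 limit their changes was not tested.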
